A study of Mus musculus with 20 samples.

Results

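The nuclear genes for the subunits of mitochondrial respiration were followed in mouse liver through hemorrhagic shock with trauma and resuscitation. They were taken by gene symbol from the array annotation: symbols starting with Nduf (complex I), Sdha to Sdhd (complex II), Uqcr and Cyc1 (complex III), Cycs (cytochrome c), Cox4i to Cox8 (complex IV) and Atp5 (complex V, the ATP synthase). The rule gave 92 genes of 18193 with a probe set of their own: 42 for complex I, 4 for complex II, 9 for complex III, 1 for cytochrome c, 19 for complex IV and 17 for the ATP synthase. The Nduf symbols include 8 assembly factors of complex I, which help to build the complex and are not part of it. They also include Ndufa4 and Ndufa4l2, which are counted here with complex IV, where the NDUFA4 protein resides.

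RNA of whole livers from male C57BL/6 mice, 8 to 12 weeks of age, had been hybridised to 20 arrays of the Affymetrix Mouse430_2 type. There were 5 arrays of non-manipulated control mice and 3 of mice with minor trauma. Another 4 came from mice after 1.5 h of severe trauma and hemorrhagic shock, 4 after this insult and 1 h of resuscitation, and 4 after it and 4.5 h of resuscitation. The labels do not say what the minor trauma was, when after it the liver was taken, or whether each array held 1 mouse or a pool, and p-values here measure the spread between these samples. In the comparisons with control, which all share the same 5 arrays, the effects of shock, surgery, anaesthesia, handling and time of day cannot be told apart. In whole liver, fewer cells of a type and less RNA per cell cannot be told apart either.

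Complexes I and II pass electrons from NADH and succinate to coenzyme Q. Complex III passes them to cytochrome c and complex IV to oxygen. Complexes I, III and IV pump protons while doing so, and the ATP synthase uses the returning protons to make ATP. Complex II is also the succinate dehydrogenase of the tricarboxylic acid cycle, and among these complexes it alone has no subunit encoded in mitochondrial DNA. In the liver this ATP drives glucose production and urea synthesis.

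The start sites of 4 genes are shown because the results below turn on complex II, whose 4 subunits were all lower at 4.5 h, and on cytochrome c, which was lower at 1 h and not at 4.5 h. Each sequence is 270 bases, 5′ to 3′ on the gene's own strand, ending 20 bases after the RefSeq transcription start (RefSeq, build GRCm38.p6). Capitals mark matches, on either strand, to the palindromic motif of NRF1 with its single free base (a factor known for its role at nuclear genes of respiration), to CCGGAAG (ETS family, to which GABPA belongs) and TGACGTCA (the cyclic AMP response element). The intervals are chr13:74350221-74350490 on the minus strand for Sdha, chr4:140961021-140961290 on the plus strand for Sdhb, chr9:50603830-50604099 on the minus strand for Sdhd and chr6:50566550-50566819 on the minus strand for Cycs.
Sdha: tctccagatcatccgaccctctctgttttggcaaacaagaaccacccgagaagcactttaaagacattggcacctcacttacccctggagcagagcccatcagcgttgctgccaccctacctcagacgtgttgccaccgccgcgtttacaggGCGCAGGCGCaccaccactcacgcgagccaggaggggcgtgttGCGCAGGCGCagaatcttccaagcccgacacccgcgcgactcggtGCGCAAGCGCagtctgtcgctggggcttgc
Sdhb: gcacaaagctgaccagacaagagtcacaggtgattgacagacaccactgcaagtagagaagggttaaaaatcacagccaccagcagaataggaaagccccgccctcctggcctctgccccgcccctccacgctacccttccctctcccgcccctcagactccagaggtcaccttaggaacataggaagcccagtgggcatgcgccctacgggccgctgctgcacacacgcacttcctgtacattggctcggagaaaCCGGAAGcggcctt
Sdhd: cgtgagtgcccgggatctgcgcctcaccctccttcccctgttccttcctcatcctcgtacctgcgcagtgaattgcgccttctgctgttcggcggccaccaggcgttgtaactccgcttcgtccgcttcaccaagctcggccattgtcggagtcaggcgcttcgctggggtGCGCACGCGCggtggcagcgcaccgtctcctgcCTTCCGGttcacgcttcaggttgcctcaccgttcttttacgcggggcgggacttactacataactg
Cycs: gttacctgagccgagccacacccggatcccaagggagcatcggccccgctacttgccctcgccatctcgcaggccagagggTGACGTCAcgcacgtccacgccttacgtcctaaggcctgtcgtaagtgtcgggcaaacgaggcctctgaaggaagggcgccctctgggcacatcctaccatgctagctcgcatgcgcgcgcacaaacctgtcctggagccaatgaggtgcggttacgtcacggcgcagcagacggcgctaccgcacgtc
The Sdha window held 3 NRF1 matches, whose first bases lay 98, 55 and 10 bases before the start. Sdhd had 1 NRF1 match 79 bases and 1 ETS match 46 bases before the start, and the ETS match of Sdhb lay at base 7 of the transcript. Cycs had a cyclic AMP response element 169 bases before the start. Sdhc had no entry.

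Values are log2(intensity + 6) after quantile normalization, from the brightest probe set of each gene. Levels of different genes come from different probes and are not compared with each other. A gene was tested where its probe set lay above the array's own median on at least 3 arrays, which left 12832 genes and 87 of the 92. The 5 left out were Cox4i2 and Cox6b2, above the median on 2 arrays each, and Cox7b2, Cox8b and Ndufb4, above it on 0. A gene was called where limma's moderated test gave a Benjamini-Hochberg adjusted p of at most 0.05 over all 12832 genes. Every adjusted p below is from this test unless another is named.

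Minor trauma array 3 stood apart. Its median over the 87 genes was 10.17, against 10.80 to 11.07 on the other 19 arrays, and its weight in a fit with array weights was 0.18, against 0.55 to 2.18. Of the 87 genes, 52 (59.8%) had their lowest value of all 20 arrays there, against 12.5% of all genes tested. By role, all 5 small subunits of complex III, all 5 small membrane subunits and all 3 c-ring genes of the ATP synthase, and 23 of 27 accessory subunits of complex I were lowest there. The 4 complex II subunits and the 4 catalytic and core subunits of complex III had their highest value of the 20 arrays on it. Compared with the mean of minor trauma arrays 1 and 2, the differences ran from -1.87 for Ndufa5 and -1.79 for Ndufa1, both accessory subunits of complex I, to 0.60 for Ndufa10 and 1.01 for the dim Ndufa4l2. Its log2 ratio of 3′ to 5′ Gapdh signal was -0.51, within the range of the other arrays, -0.57 to -0.08. What set this array apart was not tested, and results that rest on it are given with and without it. Control array 5 differed from the other controls in its neutrophil markers. S100a8 read 7.53 on it and 3.76 to 4.85 on the other 4 controls, and S100a9 read 7.09 against 4.23 to 4.73; the minor trauma arrays read 6.26 to 7.97 for S100a8. Without control array 5, 19 of the 87 genes were called lower than control at 4.5 h, and 33 without both arrays. Its part in the results was not tested.

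**Figure D1:**
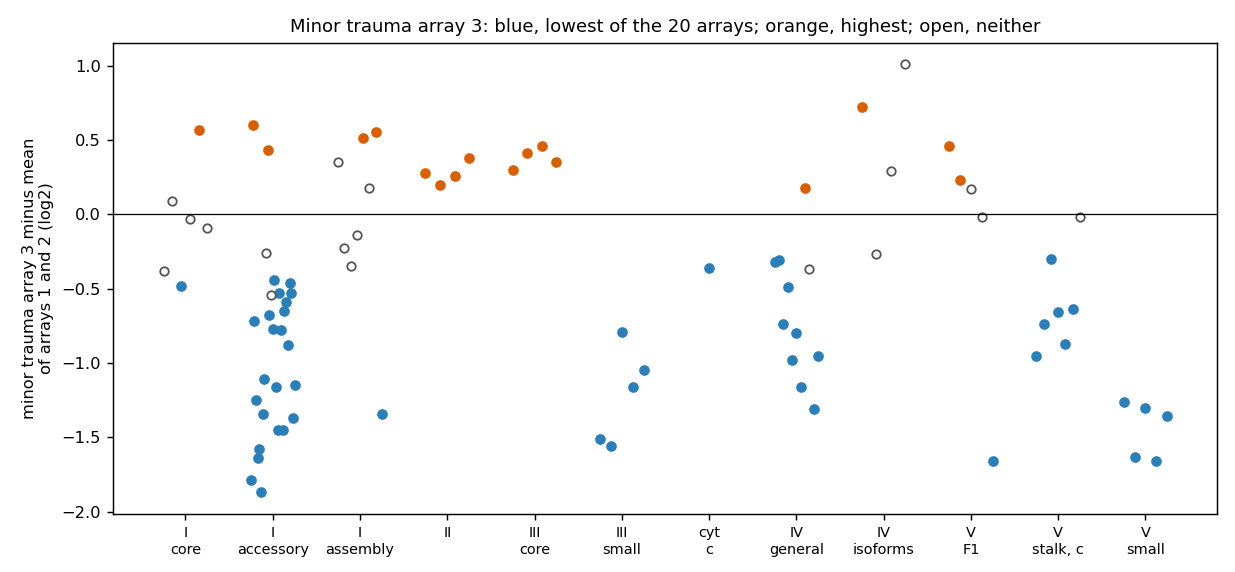
Difference on the log2 scale between minor trauma array 3 and the mean of minor trauma arrays 1 and 2 for each of the 87 genes, 1 point per gene, grouped by complex and role. Complex II and the core of complex III lie above 0, while the small subunits of complex III (to -1.56) and the small membrane subunits of the ATP synthase (to -1.66) lie below it.

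At 4.5 h of resuscitation 17 of the 87 genes were lower than in controls and 0 were higher. All 4 subunits of complex II fell, as did 3 of the 4 catalytic and core subunits of complex III (Uqcrc1, Uqcrfs1 and Cyc1). The other calls were 5 of 41 for complex I, 2 of 15 for complex IV and 3 of 17 for the ATP synthase. The falls were small, from 11.3% for Atp5c1 to 33.4% for Sdhd. Calls were frequent among all genes at this time, 23.8% lower and 15.1% higher, so the share of these genes called lower, 19.5%, lay below that of all genes. The median change was -0.16, against -0.089 for all genes tested, and 80 of the 87 (92%) had a change below 0, against 57.5% of all genes. For 21 of the 87 every array at 4.5 h lay below every control, against 18.7% of all genes.

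**Figure D2:**
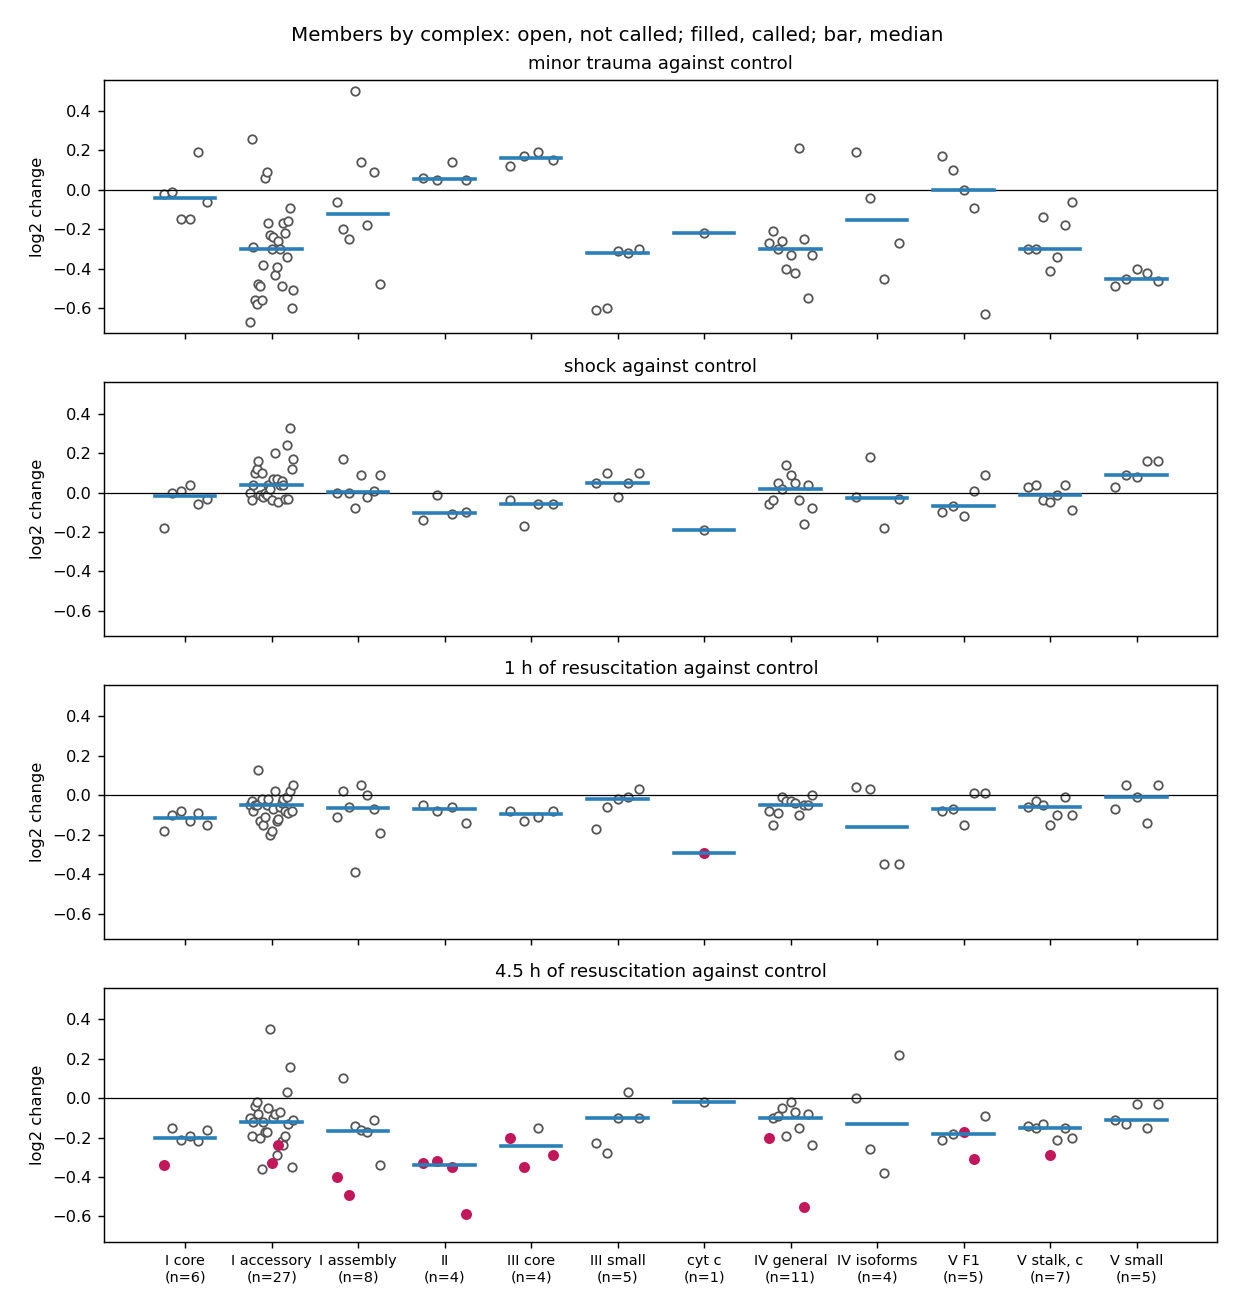
Log2 change against control of each of the 87 genes in each comparison with control, grouped by complex and role, 1 point per gene, filled where called, with bars at the group medians. At 4.5 h of resuscitation every complex II gene lies between -0.59 and -0.32, and no gene is called higher in any panel.

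These counts depend on 1 array and on the scaling. Without minor trauma array 3, which is in neither group but enters the shared estimate of the spread, 37 of 87 genes (42.5%) were called lower at 4.5 h, against 26.5% of all genes, and the 37 included all 17. They were 4 of 4 for complex II, 5 of 9 for complex III, 18 of 41 for complex I, 3 of 15 for complex IV and 7 of 17 for the ATP synthase. As deposited, with no scaling between arrays, the median of all genes fell by 0.27, that of these genes by 0.30, and 1 gene (Sdhd) was called.

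All 4 genes of complex II were called. Sdha encodes the flavoprotein that holds the succinate site. It read 11.35, 11.11, 11.08, 11.02 and 11.03 in controls and 10.76, 10.68, 10.91 and 10.79 at 4.5 h, with no overlap. It fell by 0.33 (SE 0.09, adjusted p = 0.004 by limma), or 20.5%. Sdhb encodes the iron-sulfur protein that carries electrons onward. Its values were 11.62, 11.55, 11.70, 11.60 and 11.57 in controls and 11.30, 11.28, 11.35 and 11.22 at 4.5 h, again apart. The change was -0.32 (SE 0.07, adjusted p = 0.000945), a drop of 19.8% in value.

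Sdhc and Sdhd encode the membrane anchors that hold the heme and the coenzyme Q site. Sdhc read 10.41, 10.19, 10.42, 10.28 and 10.04 in controls and 9.85, 9.76, 10.11 and 9.96 at 4.5 h. Here the groups overlapped: the third array at 4.5 h, 10.11, lay above the lowest control. The change was -0.35 (SE 0.10, adjusted p = 0.00955). Sdhd read 10.60, 10.50, 10.71, 10.71 and 10.49 in controls and 10.18, 9.75, 10.10 and 10.03 at 4.5 h, with every array at 4.5 h below every control. At -0.59 (SE 0.11, adjusted p = 0.000219) it had the largest fall of the 87 genes.

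The complex II genes moved late. In shock their changes from control lay between -0.14 and -0.01 and at 1 h of resuscitation between -0.14 and -0.05, with no call at either time. From 1 h to 4.5 h all 4 fell: Sdhd by 0.45 (adjusted p = 0.00518), Sdhc by 0.29 (0.0426), Sdha by 0.28 (0.0225) and Sdhb by 0.24 (0.0167). The comparisons with control and with 1 h share the 4.5 h arrays and are not independent. A second probe set of Sdha was also called lower than control at 4.5 h (-0.31, adjusted p = 0.00552), while the second probe sets of Sdhc (-0.25) and Sdhd (-0.18) were below control without a call.

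**Figure D3:**
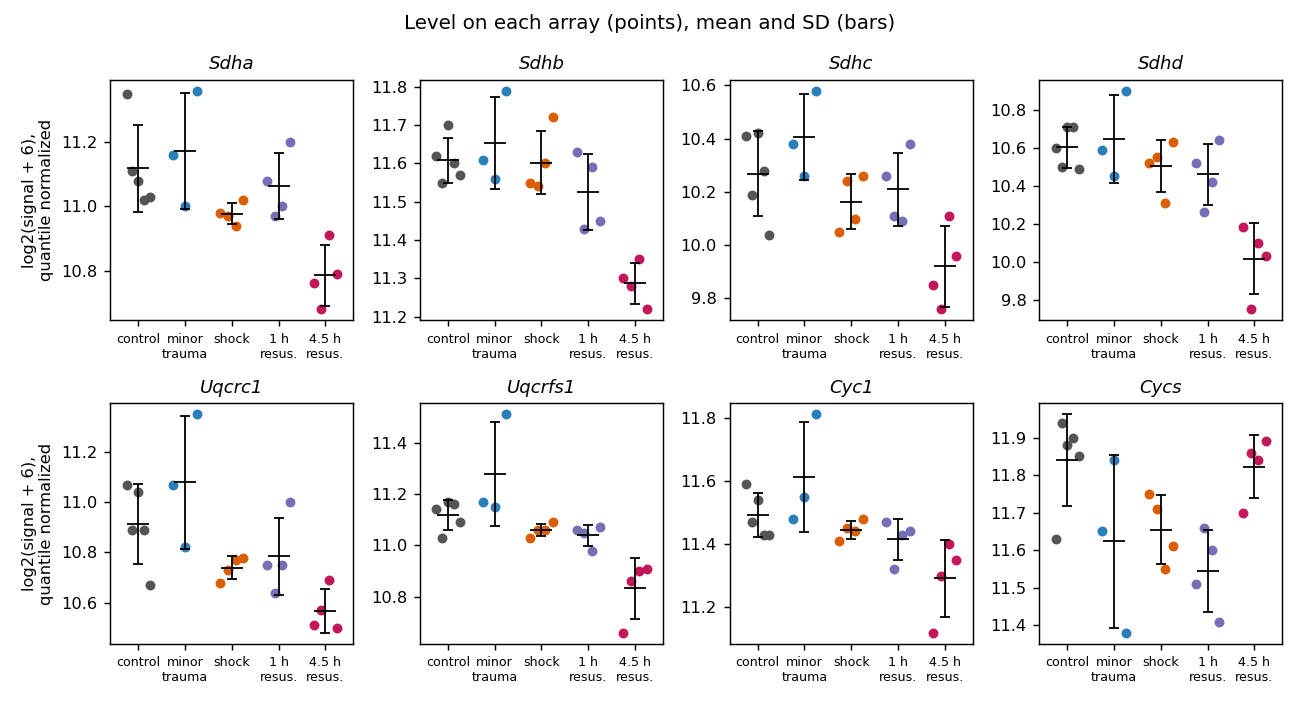
Log2(intensity + 6) of Sdha, Sdhb, Sdhc, Sdhd, Uqcrc1, Uqcrfs1, Cyc1 and Cycs, 1 panel per gene and 1 point per array, with group means as lines. The 4.5 h arrays of Sdha, Sdhb, Sdhd, Uqcrfs1 and Cyc1 lie below all controls, whereas Cycs has its lowest mean at 1 h and is back among the controls at 4.5 h.

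The 20 arrays fell into 2 sets by the signal of the dap poly-A spike-in, 1.11 to 6.67 on 10 arrays and 283 to 1455 on the other 10, and every group held both. Within the high set the changes at 4.5 h were -0.35 for Sdha, -0.29 for Sdhb, -0.44 for Sdhc and -0.64 for Sdhd. Within the low set they were -0.29, -0.33, -0.25 and -0.53 in the same order. The direction was the same in both sets; Sdhd was called in both (adjusted p = 0.04 and 0.00879), Sdhb in the low set (0.0396), and Sdha and Sdhc in neither set alone.

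In complex III 3 of the 4 catalytic and core genes were called, and 4 of 4 without minor trauma array 3. Uqcrfs1 encodes the Rieske iron-sulfur protein, which takes electrons from reduced coenzyme Q. It read 11.14, 11.03, 11.17, 11.16 and 11.09 in controls and 10.66, 10.86, 10.90 and 10.91 at 4.5 h, without overlap, a change of -0.29 (SE 0.08, adjusted p = 0.00634). Cyc1 encodes cytochrome c1, which hands electrons to cytochrome c. It read 11.59, 11.47, 11.54, 11.43 and 11.43 in controls and 11.12, 11.30, 11.40 and 11.35 at 4.5 h. The change of -0.20 (SE 0.08) was close to the limit at an adjusted p of 0.0446. Uqcrc1 and Uqcrc2 encode the 2 large core proteins. Uqcrc1 read 11.07, 10.89, 11.04, 10.89 and 10.67 in controls and 10.51, 10.57, 10.69 and 10.50 at 4.5 h, with 1 pair out of order, and changed by -0.35 (SE 0.10, adjusted p = 0.0108). Uqcrc2 changed by -0.15 and was not called (adjusted p = 0.148, and 0.0237 without minor trauma array 3). Its second probe set changed in the opposite direction, upward, so the fall of Uqcrc2 rests on the brightest probe set.

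With all arrays, none of the 5 small subunits of complex III was called (Uqcrb, Uqcrh, Uqcrq, Uqcr10 and Uqcr11), at 4.5 h or in any other comparison. Without minor trauma array 3, on which all 5 were lowest, Uqcr11 was called lower at 4.5 h (adjusted p = 0.0121). Their changes at 4.5 h ran from -0.28 for Uqcr11 to 0.03 for Uqcrh, the hinge protein next to cytochrome c1. Their standard errors, 0.11 to 0.21, were larger than those of the core genes, 0.08 to 0.10, so that falls of the size seen in the core could be missed. Whether core and small subunits differed was not tested.

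Cytochrome c is the soluble carrier between complexes III and IV. Cycs read 11.63, 11.94, 11.88, 11.90 and 11.85 in controls, 11.75, 11.71, 11.55 and 11.61 in shock, and 11.51, 11.66, 11.60 and 11.41 at 1 h of resuscitation. At 4.5 h it read 11.70, 11.86, 11.84 and 11.89. It was lower than control at 1 h, by 0.29 (SE 0.09, adjusted p = 0.0389), and was the only one of the 87 genes called at that time. Control array 1, at 11.63, lay below the highest array at 1 h, so the groups overlapped. At 4.5 h Cycs differed from control by -0.02 and had risen from its 1 h level by 0.28 (adjusted p = 0.0276).

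The 1 h call of Cycs was fragile: it was lost without control array 2, 3, 4 or 5, or without array 1, 3 or 4 of the 1 h group, with adjusted p between 0.0529 and 0.13. It also rested on the scaling: the change was -0.19 (adjusted p = 0.307) with a common trimmed mean, -0.12 (0.717) with arrays centred on their median and -0.21 (0.913) as deposited. Its other 2 clearly measured probe sets were lower at 1 h without a call (-0.15 and -0.27). Both were higher at 4.5 h than at 1 h, by 0.37 (adjusted p = 0.0357) and 0.44 (0.00627), each adjusted over all probe sets kept.

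Complex I has 41 tested genes. Of its 6 core subunits, which carry the flavin and the iron-sulfur clusters, all had changes below 0 at 4.5 h, from -0.34 to -0.15, and 1 was called. This was Ndufs1, which encodes the largest, iron-sulfur subunit. It read 10.11, 9.77, 9.94, 9.97 and 10.03 in controls and 9.57, 9.61, 9.70 and 9.62 at 4.5 h, a change of -0.34 (SE 0.10, adjusted p = 0.0103). The core medians of single arrays, 10.48 to 10.64 at 4.5 h, lay below those of the controls, 10.66 to 10.86.

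The accessory subunits, which surround the core, gave 2 calls of 27, both in the membrane arm: Ndufb10 at -0.33 (adjusted p = 0.0316) and Ndufb5 at -0.24 (0.044), neither overlapping with controls. Without minor trauma array 3, on which 23 of the 27 were lowest, 11 of 27 were called lower, among them Ndufa6 (-0.36, adjusted p = 0.00105) and Ndufs5 (-0.35, 0.00248), and 4 of the 6 core subunits. Ndufb1 had the largest positive change of all 87, 0.35, with an SE of 0.23 and no call (adjusted p = 0.253). Of the 8 assembly factors 2 fell. Ndufaf3 read 7.83, 7.90, 7.87, 7.94 and 7.91 in controls and 7.30, 7.28, 7.39 and 7.63 at 4.5 h, a change of -0.49 (SE 0.11, adjusted p = 0.00103), and it had also fallen from 1 h by 0.43 (0.0064). Ndufaf1 read 9.13, 8.81, 9.05, 8.90 and 8.86 in controls and 8.53, 8.50, 8.68 and 8.50 at 4.5 h, a change of -0.40 (SE 0.11, adjusted p = 0.00565). Both sets of values were apart from the controls.

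In complex IV the nuclear subunits surround a catalytic core that mitochondrial DNA encodes. Cox4i1, the general form of the largest nuclear subunit, fell by 0.20 (SE 0.07, adjusted p = 0.0439), with control array 5 (11.95) inside the 4.5 h range of 11.89 to 11.97. Cox7c had a larger change, -0.55 (SE 0.18, adjusted p = 0.0195), but on its only probe set, which was dim (mean 5.83), and with overlap. Its values were 6.09, 5.81, 6.14, 5.92 and 6.13 in controls and 5.82, 5.58, 5.11 and 5.35 at 4.5 h. The supercomplex factor Cox7a2l changed by -0.15 at 4.5 h (adjusted p = 0.164) and differed over the 5 groups by the F test (0.0268; 0.071 without minor trauma array 3).

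Several subunits of complex IV exist as liver or general forms and as heart, muscle or testis forms. Among the general forms, changes at 4.5 h were -0.05 for Cox6a1, -0.19 for Cox6b1, -0.07 for Cox7a2 and -0.08 for Cox8a, none called. The muscle forms Cox6a2 (0.00) and Cox7a1 (-0.26) were dim, with means of 4.87 and 4.73, and not called, and Cox8c, known from testis, changed by -0.38 without a call (adjusted p = 0.169). Cox4i2, Cox6b2, Cox7b2 and Cox8b, forms of restricted tissues, stayed below the filter. Ndufa4 changed by -0.24 (adjusted p = 0.223; 0.0433 without minor trauma array 3) and its dim counterpart Ndufa4l2 by 0.22 (0.69). No isoform pair had both forms called. Most restricted forms were dim or not tested, so these values cannot decide whether the forms of a pair moved in opposite directions.

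In the ATP synthase all 17 genes had changes below 0 at 4.5 h, from -0.31 to -0.03, and 3 were called. Atp5d encodes the delta subunit of the central stalk. It read 11.53, 11.68, 11.58, 11.78 and 11.66 in controls and 11.25, 11.29, 11.38 and 11.43 at 4.5 h, a change of -0.31 (SE 0.08, adjusted p = 0.00475), and its second probe set gave -0.30 (0.0115). Atp5c1, the gamma subunit that turns within the head, fell by 0.17 (adjusted p = 0.0365). Atp5h, subunit d of the peripheral stalk, fell by 0.29 (adjusted p = 0.0461) with overlap. The 3 genes of subunit c, which encode the same mature protein of the rotating ring, had near-equal changes and no call: Atp5g1 by -0.14, Atp5g2 by -0.15 and Atp5g3 by -0.13 (adjusted p = 0.0238 for Atp5g3 without minor trauma array 3). Among the 5 small membrane subunits there was no call either, with Atp5mpl closest to 0 at -0.03.

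**Figure D4:**
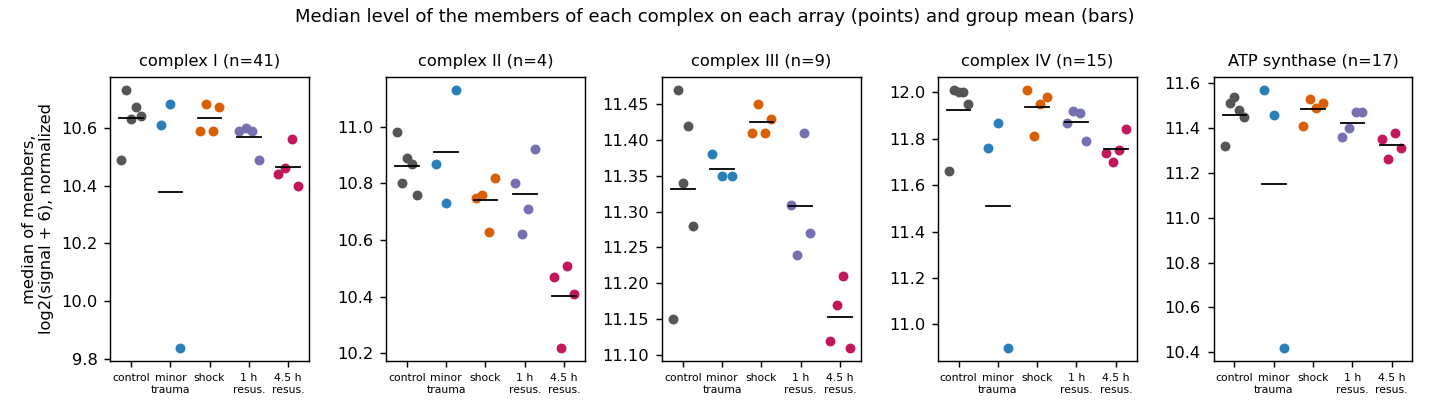
Median log2 level of the tested genes of complexes I to IV and the ATP synthase on each of the 20 arrays, 1 panel per complex and 1 point per array. Complex II runs from 10.76 to 10.98 in controls and from 10.22 to 10.51 at 4.5 h. Minor trauma array 3 is the lowest point for complex I (9.84), complex IV (10.90) and the ATP synthase (10.42).

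Of the 17 genes called lower, 7 had another probe set that passed the filter, 8 in all. These 8 all had changes below 0 at 4.5 h; 5 were called lower and 0 higher. By the F test over the 5 groups 17 of 87 genes (19.5%) differed, against 45.4% of all genes. They were 4 of 4 for complex II, 4 of 4 for the core of complex III, 0 of 5 for its small subunits, 5 of 41 for complex I, 1 of 15 for complex IV, 2 of 17 for the ATP synthase, and Cycs. Without minor trauma array 3 they were 24 of 87, against 47.1% of all genes: 4 of 4 for complex II, 2 of 4 for the core of complex III, where Cyc1 (adjusted p = 0.0677) and Uqcrc2 (0.0589) lost the call, 1 of 5 for its small subunits, 12 of 41 for complex I, 1 of 15 for complex IV, 3 of 17 for the ATP synthase, and Cycs.

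Before 4.5 h few of the 87 genes were called. In shock 0 of 87 genes were called in either direction by limma, against 2.03% higher and 1.08% lower of all genes, and 1 passed an unadjusted p of 0.05. That gene was Ndufs4, an accessory subunit of complex I. It read 9.97, 10.04, 9.97 and 9.93 in shock, all above the control range of 9.46 to 9.80, but its adjusted p was 0.171. At 1 h, Cycs was the single call, against 4.61% higher and 5.31% lower of all genes, and the median change was -0.07, as in all genes (-0.071). That median turned to 0.01 with arrays scaled to a common trimmed mean and to 0.08 with arrays centred on their median. Between shock and 1 h of resuscitation there were 0 calls by limma, with 1 gene at an unadjusted p under 0.05, against 0.873% higher and 0.374% lower of all genes.

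The precision bounds what these comparisons could miss. In shock the 95% interval of the change lay within 0.5 of 0 for 68 of 87 genes and within 1 for all 87. At 1 h the numbers were 74 and 86. Against 1 h, the 4.5 h group had 7 genes lower (18.2% of all genes) and 1 higher (14.9%): besides the complex II genes, Ndufaf3 and Cycs given above, Atp5d fell by 0.32 (adjusted p = 0.00637) and Cox7c by 0.50 (0.0489).

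Minor trauma gave 0 calls of 87 by limma, against 2.07% higher and 1.37% lower of all genes, although 39 genes had an unadjusted p under 0.05. The median change was -0.25 with array 3 and -0.04 without it; without scaling, when the median of all genes rose by 0.20, it was 0.05. Without array 3, 0 of all 12771 genes tested were called against control. Shock against minor trauma had 7 calls, all higher, against 4.18% higher and 5.38% lower of all genes. Of these, 5 encode accessory subunits of complex I, with changes of 0.72 for Ndufs5, 0.68 for Ndufv3, 0.66 for Ndufa6, 0.64 for Ndufb2 and 0.57 for Ndufc1, and 2 belong to complex IV, Cox6b1 (0.54) and Cox6c (0.43). Their adjusted p lay between 0.0308 and 0.0469, and 0 of the 7 were called without array 3.

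Markers of several liver cell types also differed from control at 4.5 h, where 23.8% of all genes were lower and 15.1% higher. Summed normalized intensity of 10 hepatocyte markers (such as Alb and Ttr) was 79113.8 to 84071.8 in controls and 83167.9 to 86262.7 at 4.5 h, with 3 of 10 genes called higher and 1 lower. Sums this large come from probe sets near the top of the scale. Quantile normalization fixes values there by rank, so a change could be compressed. Of 12 neutrophil markers 7 were tested and 5 rose, and the sum went from 88.4 to 396 in controls to 4014.7 to 4616.6. In shock and at 1 h 5 of these 7 were already called higher (2.03% and 4.61% of all genes). Between 1 h and 4.5 h 0 were called, against 18.2% lower and 14.9% higher of all genes. Of 11 Kupffer cell and monocyte markers 10 were tested, 7 fell and 1 rose (sum 3079 to 5143.5 in controls, 1412.2 to 1826.7 at 4.5 h). Of 9 endothelial markers 5 fell and 2 rose (1802.4 to 2240.1 against 1353.6 to 1539.5). The part of these shifts in the changes of the respiratory genes was not tested.

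Of 9 stellate cell and fibroblast markers 2 fell and 0 rose at 4.5 h, against 23.8% lower and 15.1% higher of all genes. For the remaining lists the genes called higher and lower at 4.5 h were 2 and 0 of 3 tested for cholangiocytes, 0 and 0 of 1 for erythroid cells, 1 and 0 of 5 for lymphocytes, 1 and 0 of 2 for adipocytes and 0 and 1 of 2 for exocrine pancreas. For striated muscle, whose own isoforms of complex IV subunits are on the array, 2 of 10 markers were tested and 0 were called.

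The promoter table had entries for 75 of the 92 genes. In windows of 250 bases before to 50 after the start, the NRF1 motif occurred in 22.7% of these genes, against 5.19% of all 27025 genes in the table. For the ETS letters the shares were 25.3% and 9.93%, for the cyclic AMP response element 5.33% and 2.03%, and for AANATGGCG (the motif of YY1) 13.3% and 2.76%. TATAAA was found in 10.7% against 15.7%. Of the 13 genes lower at 4.5 h that had an entry, 5 (38.5%) held the NRF1 motif, as did 12 of the other 62 (19.4%). For ETS the counts were 4 of 13 and 15 of 62, and for YY1 0 of 13 and 10 of 62. The other 62 include Cox6b2, Cox7b2, Cox8b and Ndufb4, which were not tested and could not be called. Of these, Ndufb4 held the NRF1 motif. The 0 for YY1 rested on minor trauma array 3. Without it, Atp5j, Ndufa9, Ndufaf8 and Ndufb11, which hold this motif, were called lower at 4.5 h (adjusted p = 0.00769, 0.0239, 0.0249 and 0.0373 by limma). The NRF1 and ETS counts also change without this array, as genes with and without these motifs are then added to those called lower. All motifs were searched on both strands as exact letters, and a match is no evidence of binding. With 13 genes, these differences were not tested.

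The next lists are read against the same 23.8% of all genes lower and 15.1% higher at 4.5 h. Of 40 tested assembly factors outside the Nduf symbols, 14 were lower and 3 higher at 4.5 h, with a median change of -0.22. Complex II has 4 such factors on the list. Sdhaf1, which helps to insert the iron-sulfur clusters of Sdhb, read 7.34, 7.87, 8.17, 8.07 and 7.73 in controls and 7.02, 7.07, 6.83 and 6.95 at 4.5 h. It fell by 0.87 (SE 0.14, adjusted p = 5.26e-05) and was already lower at 1 h, by 0.68 (adjusted p = 0.0029). Sdhaf3, which acts in the same maturation, read 7.64, 7.58, 7.69, 7.54 and 7.72 in controls and 6.82, 6.72, 6.65 and 6.85 at 4.5 h, and fell by 0.87 (SE 0.14, adjusted p = 3.17e-05).

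Sdhaf4, which assists Sdha, fell by 0.56 (adjusted p = 0.00194). Sdhaf2, which attaches the flavin to Sdha, changed by -0.25 and was not called (adjusted p = 0.0657). In the other direction, Cox18, which inserts a subunit of complex IV into the membrane, rose by 0.83 (adjusted p = 2.74e-06). At 1 h Tmem126b, a complex I assembly factor, was lower by 0.95 on a dim probe set (adjusted p = 0.00202), and Cox19, of copper delivery to complex IV, was higher by 0.53 (0.00577). At that time 3 of 40 were lower and 1 higher, against 5.31% lower and 4.61% higher of all genes. In shock 0 of 40 were called by limma, against 1.08% lower and 2.03% higher of all genes.

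**Figure D5:**
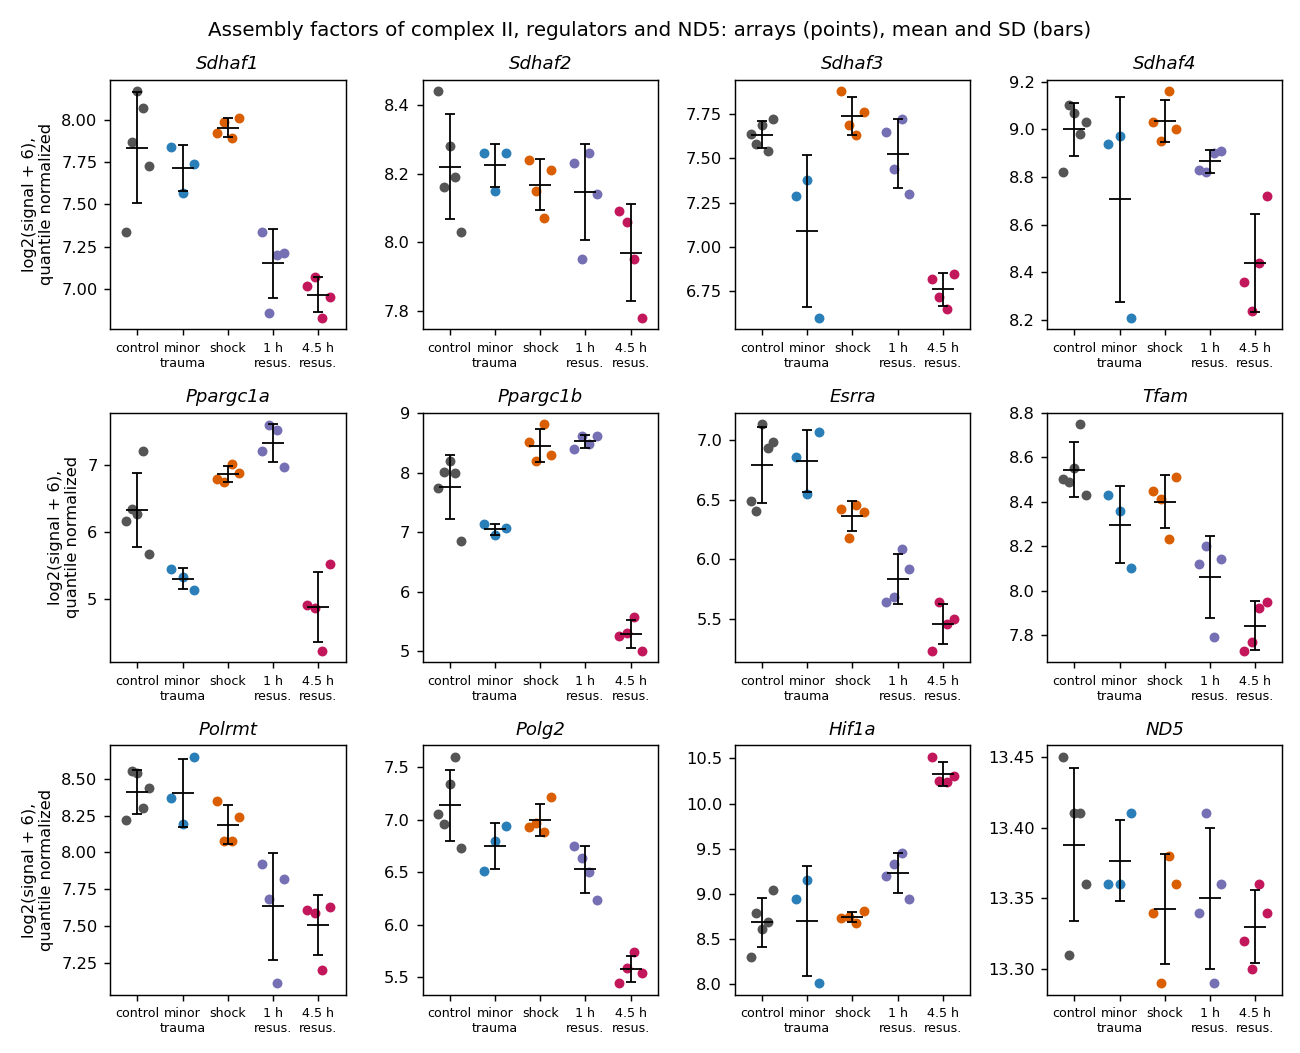
Log2(intensity + 6) of Sdhaf1, Sdhaf2, Sdhaf3, Sdhaf4, Ppargc1a, Ppargc1b, Esrra, Tfam, Polrmt, Polg2, Hif1a and ND5, 1 panel per gene and 1 point per array, with group means as lines. Ppargc1b lies between 5.01 and 5.57 at 4.5 h and between 6.85 and 8.20 in controls, while ND5, among the brightest probe sets of every array, reads 13.29 to 13.45 at the top of the normalized scale.

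Of 24 tested regulators of mitochondrial gene expression, 11 were lower and 6 higher at 4.5 h. Ppargc1b, a coactivator of respiratory genes, read 7.74, 8.01, 8.20, 7.99 and 6.85 in controls and 5.26, 5.31, 5.57 and 5.01 at 4.5 h, a change of -2.47 (SE 0.20, adjusted p = 5.86e-09). Ppargc1a, its relative with a known role in fasting liver, read 6.17, 6.35, 6.27, 7.21 and 5.67 in controls and 4.91, 4.87, 4.23 and 5.52 at 4.5 h, a change of -1.45 (SE 0.25, adjusted p = 7.85e-05). At 1 h both had been above control, Ppargc1a by 1.00 (adjusted p = 0.0106) and Ppargc1b by 0.77 (0.0167). Control array 5 had the lowest control value of both.

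Esrra, a nuclear receptor that works with these coactivators, fell by 0.96 at 1 h (adjusted p = 0.000339) and by 1.34 at 4.5 h (1.28e-06). Genes for handling mitochondrial DNA were called in both directions. Polg2, an accessory subunit of its DNA polymerase, fell by 1.56 (adjusted p = 1.38e-07), Polrmt, its RNA polymerase, by 0.90 (6.79e-05), and Tfam, which packages it, by 0.70 (4.02e-05), whereas Mterf3, of the mitochondrial transcription termination factor family, rose by 0.55 (0.00247) and Mterf1a, on a dim probe set, by 0.48 (0.0267). Polrmt (-0.78, 0.00159) and Tfam (-0.48, 0.00673) were lower already at 1 h. Hif1a, the oxygen-regulated factor, rose by 1.64 at 4.5 h (adjusted p = 3.2e-07). Of the factors whose motifs were searched, Nrf1 changed by 0.27 (adjusted p = 0.304) and Gabpa by -0.38 (0.26), neither called, whereas Gabpb1, the partner of Gabpa, rose by 0.83 (0.0002). In shock Mterf1a, on a dim probe set, was the single call (-0.69, adjusted p = 0.0218).

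Only 1 of the 13 subunits encoded in mitochondrial DNA had a probe set under its own symbol, ND5 of complex I. It ranged from 13.31 to 13.45 in controls and from 13.30 to 13.36 at 4.5 h, a change of -0.06 (SE 0.05, adjusted p = 0.352). ND5 ranked between 2 and 11 of 45101 probe sets on each array, where quantile normalization fixes the value by rank, so a change could be compressed. As deposited its change was -0.13 (adjusted p = 0.701).

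Of 24 tested genes of the tricarboxylic acid cycle and pyruvate entry, 11 were lower and 3 higher at 4.5 h. Pdk4, a kinase that shuts pyruvate dehydrogenase off, was higher in shock by 2.47 (adjusted p = 0.00121), at 1 h by 2.97 (6.13e-05) and at 4.5 h by 2.18 (0.000348). Its relative Pdk2 fell by 1.55 at 4.5 h (adjusted p = 1.56e-06), and Pdp1, the opposing phosphatase, rose by 0.92 from a dim control level (0.00377). Cs encodes citrate synthase, whose enzyme activity is often used as a measure of mitochondrial content. Its RNA fell by 0.60 at 4.5 h (adjusted p = 0.00105), and arrays do not measure the activity. At 1 h Idh3a was lower (-0.69, adjusted p = 0.0092) and Pdhb higher (0.44, 0.0167).

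Of 31 tested genes for import, chaperones and membrane channels, 14 were lower and 0 higher at 4.5 h. They included Mfn2 of outer membrane fusion (-0.85, adjusted p = 1.39e-05), Timm9 (-0.69, 0.00125) and Tomm40, the import pore (-0.59, 0.00236). At 1 h Tomm70a (-0.44, 0.00765) and Vdac2 (-0.30, 0.0374) were lower, and in shock Hspd1 was (-0.37, 0.0419). Of 19 tested genes of coenzyme Q synthesis and electron entry, 7 were lower and 3 higher at 4.5 h. A pair of related kinases of coenzyme Q synthesis moved in opposite directions: Coq8a changed by -1.99 (adjusted p = 6.11e-05) and Coq8b by 1.88 (6.02e-09). Coq8a varied widely in controls, from 7.82 to 10.05, and lay between 6.58 and 7.40 at 4.5 h. Prodh, which passes electrons from proline, fell by 1.28 (adjusted p = 9.45e-07). At 1 h Gpd2 was higher by 0.58 (0.00209) and Etfb lower (-0.27, 0.0173).

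The same lists had calls in minor trauma that rested on array 3: Foxred1 (0.55), Sdhaf3 (-0.54), Pprc1 (1.09), Ppargc1a (-1.02), Pdhx (0.73), Pdp2 (0.69), Pdhb (0.55), Tomm40 (0.80) and Gpd2 (0.55), with adjusted p between 0.0151 and 0.0491. Without array 3, 0 genes of these lists were called against control by limma. At 4.5 h the counts of genes lower were 14, 11, 11, 14 and 7 of the assembly factors, regulators, cycle, import and coenzyme Q lists, and 17, 11, 13, 14 and 9 without it. As deposited, with no scaling, they were 10, 9, 4, 3 and 4.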

How the data were processed

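Whole liver RNA was measured on 20 Affymetrix Mouse430_2 arrays. The authors deposited 1 linear intensity per probe set and array. The submitters' processing notes name MAS5 as the tool, and its version is not given in the sources used here. These intensities carry no common scaling: the trimmed mean of single arrays ran from 64.93 to 166.6.

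After adding 6 and taking log2, the 20 arrays were quantile normalized. The filter kept 27274 probe sets, those above their own array's median on at least 3 arrays. Of the probe sets on the array, 34945 had 1 gene symbol in the platform annotation, 932 several and 9160 none, and 64 were controls; genes were named only from those with 1. Each gene was represented by its brightest kept probe set, by mean over arrays. One limma model (limma 3.58.1, R 4.3.3) of 5 group means gave moderated tests with an intensity trend for 7 comparisons and an F test, with Benjamini-Hochberg adjustment over all 12832 genes. The number of arrays limits the precision. The method was run on simulated data whose planted changes were larger than the falls of the respiratory genes called here. The simulated noise was independent between genes, with no array that stood apart. The simulation therefore does not show how well falls of the present size are detected.

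The genes and lists were chosen with earlier results of these data known. Named are the genes called in each comparison (at most 10 in each direction), for each complex the gene with the smallest F test p and those with the extreme changes at 4.5 h, all isoform families, Sdha to Sdhd, Cyc1 and Cycs, and up to 3 called genes of each pathway list per comparison with control. Chosen after their values were seen were Sdhaf2, Sdhaf4, Esrra, Tfam, Polrmt, Cs, Gabpb1, Nrf1, Gabpa, ND5, Uqcrc2, Uqcr11, Ndufs4, Atp5c1, Atp5h and Ndufb5, Ppargc1a, Mterf1a, Mterf3, Ndufa6, Ndufs5, Ndufa4 and Atp5g3 at 4.5 h, Ppargc1b, Polrmt and Tfam at 1 h, and the extremes of minor trauma array 3. Atp5j, Ndufa9, Ndufaf8 and Ndufb11 at 4.5 h were also named after their values were seen. Promoters came from RefSeq (GRCm38.p6).

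Alternatives changed the scaling, the constant added before log2, the filter, the probe set, the fit and the arrays included.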

Additional observations from a re-analysis of the deposited data

Results flagged for a closer look

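Within a group of 4 or 5 arrays, 1 array lay far from the others, by the gap to its nearest neighbour over the group's range (Dixon's 95% limit), in 13 of the 172 groups of values looked at; chance alone gives about 1 in 20. Values are log2 levels. Control array 1 was high for Sdha (11.35, nearest 11.11) and low for Ndufa6 (10.97, nearest 11.32), Cox6c (11.92, nearest 12.08) and the median of complex IV (11.66, nearest 11.95). In shock, array 2 was high for Ndufb10 (10.40) and Ndufb2 (10.48), array 4 high for Cox8a (11.15), and array 3 low for Cox8c (6.53, nearest 7.55). At 1 h of resuscitation, array 4 was low for Ndufb10 (10.06) and for the median of complex I (10.49, nearest 10.59), and array 2 low for Ndufs1 (9.66). At 4.5 h, array 2 was high for Atp5g3 (12.48, the others at 12.44) and array 3 high for Ndufaf1 (8.68, nearest 8.53), which still lay below all controls. The causes were not tested.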

How the results depend on the processing

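Counts are of the 87 genes called; the causes of these differences were not tested. As deposited, without scaling, there were 0 calls at 1 h against control, 1 at 4.5 h, 0 in shock against minor trauma, 0 for 4.5 h against 1 h and 2 by the F test, and the median changes were 0.05 for minor trauma against control and 0.05 for shock against minor trauma. With a common trimmed mean the counts were 0 at 1 h, 11 at 4.5 h and 11 in shock against minor trauma. With arrays centred on their median they were 0, 8 and 2, and the minor trauma median was -0.01. Without a filter they were 0 at 1 h, 1 in shock against minor trauma and 10 by the F test. The second probe set gave 2 in shock against minor trauma. Array weights gave 1 in shock, 28 at 4.5 h and 4 in shock against minor trauma, with a minor trauma median of -0.06. Fits of only the groups compared gave 0 in shock against minor trauma and 13 for 4.5 h against 1 h. The dap set as a block gave 4 in shock against minor trauma. Within the high dap set there were 0 at 1 h, 3 at 4.5 h, 0 in shock against minor trauma, 0 for 4.5 h against 1 h and 1 by the F test. Within the low set, whose 1 minor trauma array is assumed to vary like the other groups, there were 0, 4, 0, 2 and 1, with medians of -0.01 for minor trauma and 0.06 for shock against minor trauma. With control array 5 and minor trauma array 3 both left out there were 1 in shock, 33 at 4.5 h, 0 in shock against minor trauma and 15 for 4.5 h against 1 h, with medians of -0.04 and 0.04.

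Leaving out 1 array at a time gave 11 to 37 calls at 4.5 h (11 without control array 3 or 4.5 h array 2, 37 without minor trauma array 3), 0 to 2 at 1 h, 3 to 13 for 4.5 h against 1 h, 0 to 0 in shock, 0 to 0 for 1 h against shock, and 6 to 42 by the F test. Minor trauma gave 0 to 21 calls (2 without control array 5, 21 and 19 without minor trauma arrays 1 and 2). Shock against minor trauma gave 0 to 33 (33 without minor trauma array 1 or 2; 0 without array 3 or without shock array 1, 2 or 3). Medians ran from -0.33 to -0.04 for minor trauma, 0.04 to 0.35 for shock against it, -0.02 to 0.04 for shock, -0.09 to -0.04 at 1 h and -0.17 to -0.14 at 4.5 h.

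Some uncalled changes near 0 at 4.5 h turned sign. Uqcrh was -0.10 as deposited, -0.08 in the high dap set and -0.01 without control array 1. Cox6a2 was -0.13 as deposited, -0.01 with median centring, 0.00 with 18 added, -0.01 with the dap block, -0.14 in the high set, -0.09 without control array 3 and -0.01 without control array 4 or 4.5 h array 2. Cycs was 0.08 with the trimmed mean, 0.02 with median centring, 0.07 with the mean of probe sets, 0.22 with the second, 0.07 in the low set, and -0.07 to 0.02 with 1 array left out (0.01 without control array 2, 0.02 without 4.5 h array 1). Cox6a1 was 0.10 with the trimmed mean and 0.04 with median centring; Cox7a2 was 0.06, 0.00, 0.01 with the second probe set and 0.05 in the low set. ND5 was 0.06 with the trimmed mean, Uqcrc2 0.03 with the mean of probe sets and 0.21 with the second, Sdhaf2 0.06 with the second, Ndufb1 -0.25 in the high set, Nrf1 -0.10 in the low set and Atp5mpl -0.11 to 0.02 with 1 array left out (0.02 without control array 2).

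Same-numbered arrays of different groups did not clearly deviate together (36 pairs, r from -0.08 to 0.17, 3 above 0.1). For 123 pairs of different number r ran from -0.17 to 0.15. With so few arrays a weak shared effect could be missed, and the main fit used no pairing. With the replicate number as a block there were 18 calls at 4.5 h, 2 in minor trauma and 4 in shock against minor trauma. Over 36 alternatives, the 4.5 h call was lost in 1 for Sdhd, 2 for Sdhb, 3 for Sdha, 6 for Sdhc, 22 for Cyc1 and 19 for Cox4i1, the Cycs call at 1 h in 15, and those of Sdhaf1, Sdhaf3, Ppargc1a, Ppargc1b, Tfam, Polg2 and Hif1a in 0. The pathway genes were put through the same alternatives after the data were seen.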
